A study of Mus musculus with 8 samples.

Results

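The genes described here are Dcn, Ccn3, Rspo2, Grp, Npr3, Trhr, Trpc4, Crym, Cadps2 and Nr2f2, which were grouped as genes of the ventral hippocampus with higher values in FTY720-treated mice. They were chosen by their measured difference between FTY720 and vehicle mice in these same 8 arrays, so that difference is given as a description and carries no test. All probe sets annotated to exactly 1 of the 10 genes were taken, which gave 17 of the 22690 probe sets in the table. A single probe set was found for 5 of the genes, and 2 or 3 for each of the others.

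The arrays came from whole hippocampi of 8 male SCID mice aged 12 weeks. SCID mice lack mature lymphocytes, and this background was shared by both groups. One group of 4 mice had FTY720 by mouth in saline at 1 mg/kg on 3 days, and the other 4 mice had oral saline for the same time. FTY720 (fingolimod) is a sphingosine analogue that acts on sphingosine-1-phosphate receptors once it is phosphorylated. All mice went through contextual fear conditioning and were killed 1 hour after the consolidation test, 17 hours after the last dose. The FTY720 mice are numbered 1, 4, 5 and 6 and the vehicle mice 13, 14, 15 and 16, with 1 Affymetrix 3' expression array per mouse. No array was made from a dorsal or a ventral part, so the name of the group refers to where these genes are known to be strong and not to a measured position.

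The hippocampus is not uniform along its long axis. Its dorsal part is best known for spatial memory, while the ventral part connects with the amygdala, hypothalamus and prefrontal cortex and is tied to fear and stress. Pyramidal and granule neurons differ in gene expression along this axis, and Dcn, Trhr and Nr2f2 are among the genes known for a stronger signal at the ventral end. In RNA from a whole hippocampus, a lower value can mean fewer cells of a type or less RNA per cell, and these cannot be told apart.

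The arrays were alike, with medians between 6.68 and 6.72 on the log2 scale and a median correlation with the other arrays between 0.994 and 0.998 (22626 probe sets). Vehicle 15 had the lowest of these correlations and vehicle 16 the next, 0.996. The granule cell gene Dsp, the CA3 gene Bok and the CA1 gene Wfs1 had mean levels of 9.11, 9.20 and 9.87, all above the median of all 12393 genes, 7.17. Calb1, also a granule cell gene, stood at 11.06. Other genes of the same lists were below that median. Of the granule cell genes, Prox1 had a mean of 3.29 from its only probe set, Tdo2 5.57 and Stxbp6 6.64. Of the CA3 and mossy cell genes, Csf2rb2 had 4.70, Drd2 5.78 and Prss35 6.12. C1ql2, Fibcd1 and Grik4, also meant for this check, were not measured. The difference between the 5' and 3' Gapdh control probe sets, which becomes more negative as RNA is degraded, averaged -0.95 ± 0.14 (SD, n = 4) in FTY720 mice and -1.20 ± 0.18 (n = 4) in vehicle mice. Its lowest value was that of vehicle 16, -1.46. Its part in the differences below was not tested.

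In the limma fit over all probe sets, 0 of 22626 (0%) passed an adjusted p of 0.05, the lowest adjusted p being 0.483, and 1529 had an unadjusted p under 0.05. None of the 10 genes was therefore called different. At the brightest probe set of each gene, the 10 differences lay between 0.24 and 0.90 on the log2 scale with a median of 0.61, beside a median of 0.0072 over all 12393 genes. The groups did not overlap in 5 of the 10 genes, namely Dcn, Grp, Npr3, Trpc4 and Crym, and in 7 of the 17 probe sets. Over the whole table, FTY720 mice were higher without overlap in 2.72% of genes and 2.65% of probe sets. These counts follow from how the genes were chosen, and nothing is read from them.

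**Figure D1:**
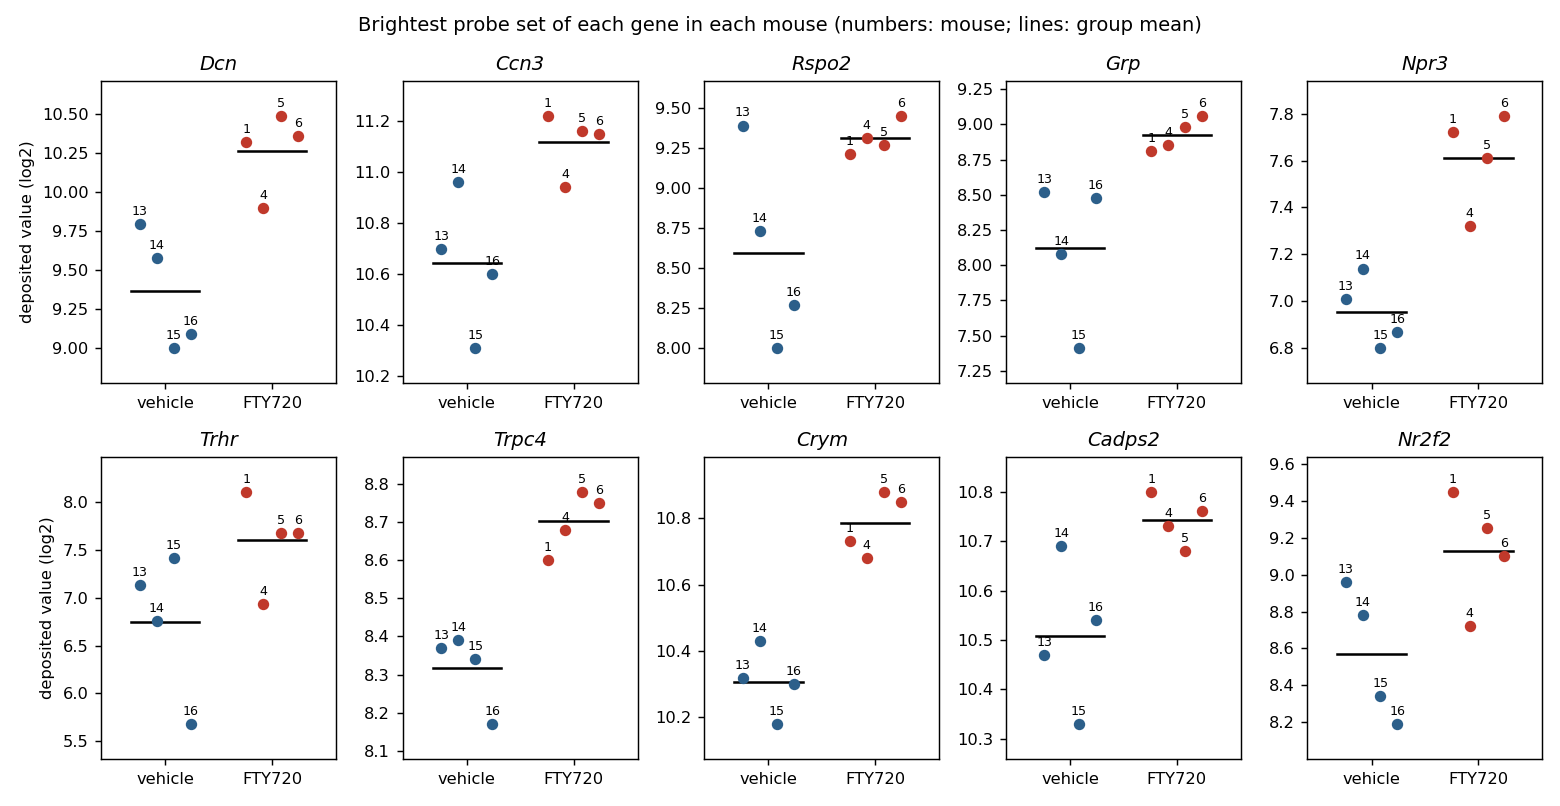
Deposited log2 value (vertical axis, scaled separately in each panel) of the brightest probe set of each gene, with 1 point per mouse, its mouse number, and a line at the mean of the 4 mice of a group. Vehicle 15 is the lowest point in 7 panels and vehicle 16 in the other 3, and the groups do not overlap for Dcn, Grp, Npr3, Trpc4 and Crym.

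Among the secreted proteins, Dcn encodes decorin, a small proteoglycan of the extracellular matrix that binds collagen and growth factors. Its values in FTY720 mice 1, 4, 5 and 6 were 10.32, 9.90, 10.49 and 10.36, and those in vehicle mice 13, 14, 15 and 16 were 9.80, 9.58, 9.0 and 9.09. The lowest FTY720 mouse, 4, stood just above the highest vehicle mouse, 13, and vehicle 15 and 16 lay well below the other vehicle mice. Group means were 10.27 ± 0.25 (SD, n = 4) and 9.37 ± 0.39 (n = 4), a difference of 0.90 (standard error, SE, 0.18) or 1.86-fold. Without vehicle 15 and 16 the difference was 0.58.

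Ccn3 encodes a matricellular protein that binds integrins. Its brighter probe set read 11.22, 10.94, 11.16 and 11.15 in FTY720 mice and 10.70, 10.96, 10.31 and 10.60 in vehicle mice. FTY720 mouse 4 fell just under vehicle 14, so the groups overlapped by a single pair of mice. The difference was 0.48 (SE 0.12), and 0.29 without vehicle 15 and 16. The second probe set gave 10.60, 10.34, 10.59 and 10.71 against 10.27, 10.39, 9.81 and 10.19, a difference of 0.39 (SE 0.12) with the same overlap of FTY720 4 and vehicle 14.

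Rspo2 encodes R-spondin 2, a secreted protein that strengthens WNT signalling through LGR receptors. FTY720 mice had 9.21, 9.31, 9.27 and 9.45, within a narrow band (SD 0.10), while vehicle mice had 9.39, 8.73, 8.0 and 8.27 (SD 0.61). Vehicle 13 lay inside the FTY720 range and the other vehicle mice below it. The difference of 0.71 (SE 0.24) became 0.25 without vehicle 15 and 16.

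Grp encodes gastrin-releasing peptide, a neuropeptide that acts on the receptor GRPR. Its values were 8.81, 8.85, 8.98 and 9.06 in FTY720 mice and 8.52, 8.08, 7.41 and 8.48 in vehicle mice. The groups did not overlap, and vehicle 16 was close to vehicle 13 here, with vehicle 14 lower and vehicle 15 far below. The difference was 0.80 (SE 0.21), 0.57 without vehicle 15 and 0.63 without vehicle 15 and 16.

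Turning to receptors and channels, Npr3 encodes the clearance receptor for natriuretic peptides, which removes them from the extracellular space. Its brightest probe set read 7.72, 7.32, 7.61 and 7.79 in FTY720 mice and 7.01, 7.14, 6.80 and 6.87 in vehicle mice. The groups were apart, with FTY720 4 again lowest in its group. The difference was 0.66 (SE 0.11), or 0.54 without vehicle 15 and 16. A dimmer probe set had 5.52, 5.36, 5.21 and 5.73 against 4.91, 4.97, 4.63 and 4.61, a difference of 0.68 (SE 0.12), also with no overlap. The third probe set stood between 3.69 and 4.11 in all 8 mice and differed by 0.08 (SE 0.09). Its mean level exceeded that of only 11.1% of probe sets. The part of this low level in its small difference was not tested.

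Trhr encodes a receptor for thyrotropin-releasing hormone. It varied most between mice, with 8.11, 6.93, 7.68 and 7.68 in FTY720 mice and 7.13, 6.76, 7.42 and 5.68 in vehicle mice. Vehicle 15, lowest for most of the other genes, was the highest vehicle mouse here, and vehicle 16 was far below the rest. The difference of 0.85 had an SE of 0.35 and was 0.50 without vehicle 16, 1.08 without vehicle 15 and 0.65 without both. The dimmer probe set, at a mean level of 3.82, read 4.37, 3.72, 3.80 and 4.14 against 3.62, 3.48, 3.90 and 3.52, a difference of 0.38 (SE 0.14).

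Trpc4 encodes a cation channel of the plasma membrane that opens downstream of G protein-coupled receptors. The brighter probe set gave 8.60, 8.68, 8.78 and 8.75 in FTY720 mice and 8.37, 8.39, 8.34 and 8.17 in vehicle mice, and the dimmer 5.86, 5.88, 6.13 and 5.97 against 5.68, 5.53, 5.63 and 5.36. Neither probe set overlapped between the groups. The differences were 0.39 (SE 0.07) and 0.41 (SE 0.09), and they were 0.33 and 0.36 without vehicle 15 and 16.

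Of the intracellular proteins, Crym encodes mu-crystallin, which binds thyroid hormone in the cytoplasm. It read 10.73, 10.68, 10.88 and 10.85 in FTY720 mice and 10.32, 10.43, 10.18 and 10.30 in vehicle mice. Both groups were tight (SD 0.09 and 0.10) and clearly apart. The difference was 0.47 (SE 0.07), and 0.40 without vehicle 15 and 16, so Crym moved less with those mice than Dcn or Rspo2 did.

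Cadps2 encodes a protein that primes dense-core vesicles for release, and it had the smallest difference among the brightest probe sets, 0.24 (SE 0.08). FTY720 mice had 10.80, 10.73, 10.68 and 10.76 and vehicle mice 10.47, 10.69, 10.33 and 10.54. Vehicle 14 lay just above FTY720 5, and the others were ordered by group. Without vehicle 15 and 16 the difference was 0.17.

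Nr2f2 encodes COUP-TFII, a nuclear receptor that acts as a transcription factor. Its brightest probe set read 9.45, 8.72, 9.25 and 9.10 in FTY720 mice and 8.96, 8.78, 8.34 and 8.19 in vehicle mice. FTY720 4 fell below both vehicle 13 and vehicle 14. The difference was 0.56 (SE 0.19), and those of the dimmer probe sets were 0.56 (SE 0.20) and 0.57 (SE 0.15). Without vehicle 15 and 16 the 3 probe sets gave 0.26, 0.36 and 0.45. Of the 10 genes, Trpc4, Cadps2, Nr2f2 and Npr3 had an entry in the RefSeq promoter sequences (GRCm38.p6). The 250 bases upstream of the Nr2f2 start, at chr7:70366747-70366996 on the minus strand, are shown because Nr2f2 is the transcription factor among the genes, with matches to the CCAAT box in capitals on either strand.

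Nr2f2 upstream: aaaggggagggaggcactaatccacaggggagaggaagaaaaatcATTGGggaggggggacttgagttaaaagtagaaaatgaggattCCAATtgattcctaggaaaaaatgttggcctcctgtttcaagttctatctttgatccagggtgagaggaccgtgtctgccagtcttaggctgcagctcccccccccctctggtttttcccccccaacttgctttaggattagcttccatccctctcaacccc

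The CCAAT matches begin 205 and 162 bases upstream of the start and do not overlap each other, and 33.8% of the 32851 promoter windows of the same length hold this motif on either strand. The nuclear receptor core motif AGGTCA, which COUP-TF proteins bind in pairs, was searched on both strands and is held by 14.0% of windows. It was not among the letters of the 4 windows of these genes, of which those of Trpc4, Cadps2 and Npr3 start inside the annotated gene and were therefore not printed. These matches are a description of the sequence and say nothing of binding.

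**Figure D2:**
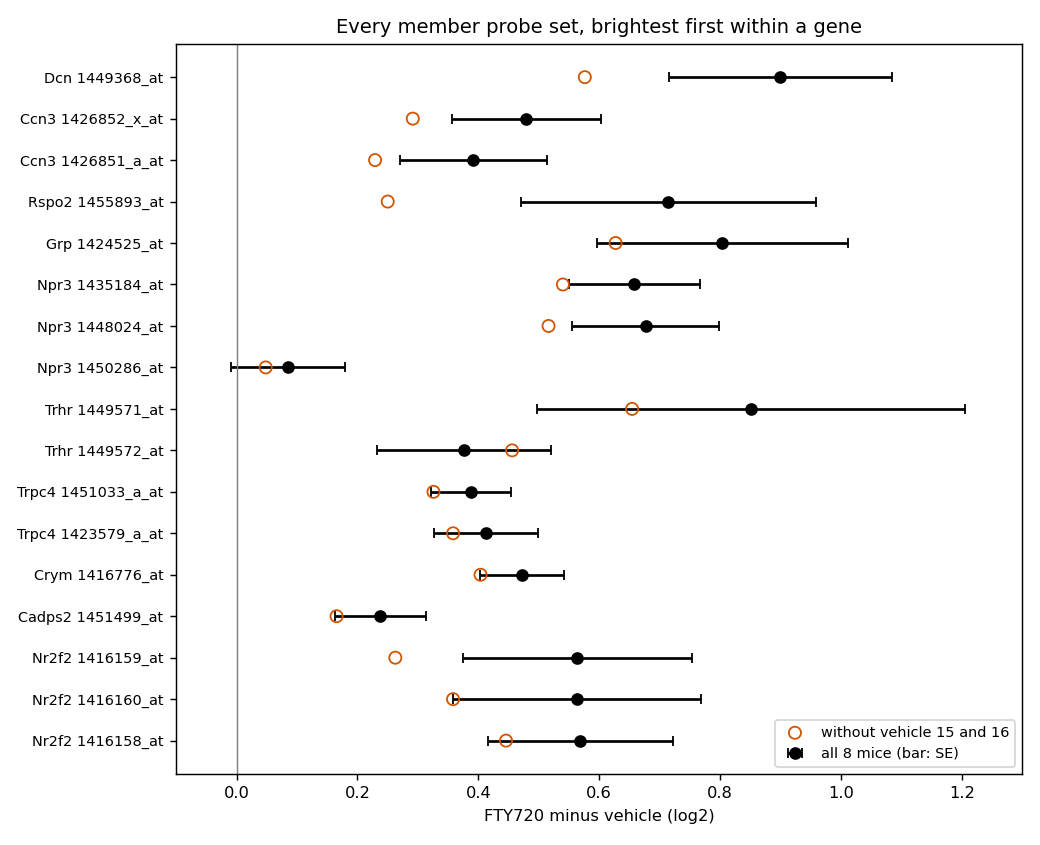
Difference FTY720 minus vehicle on the log2 scale (horizontal axis) for each of the 17 probe sets, brightest first within a gene, with filled points and SE bars for all 8 mice and open circles for the fit without vehicle 15 and 16. All 17 differences are above 0 in these genes, which were chosen on this difference, and Rspo2 moves from 0.71 to 0.25 without these mice.

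Across the 10 genes the mice had a repeated order. Vehicle 15 was the lowest of the 8 mice for 7 genes (Dcn, Ccn3, Rspo2, Grp, Npr3, Crym and Cadps2) and vehicle 16 for the other 3 (Trhr, Trpc4 and Nr2f2). The highest mouse was always an FTY720 mouse, mouse 1 for 4 genes and mice 5 and 6 for 3 each. Relative to the mean of the 8 mice, the average over the 10 genes was 0.38, 0.09, 0.36 and 0.38 in FTY720 mice 1, 4, 5 and 6. In vehicle mice 13 to 16 it was -0.05, -0.16, -0.50 and -0.50. FTY720 mouse 4 thus stood apart from its group, and vehicle 15 and 16 lay together at the bottom. Without vehicle 15 and 16 all 10 differences became smaller but stayed above 0, with a median of 0.36 in place of 0.61. As these mice had the lowest averages, smaller differences follow largely from leaving them out. Which group held the highest and the lowest mouse, and the sign of the differences, follow largely from how the genes were chosen.

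The genes were chosen on the difference between the groups, and whether the spread within groups also played a part is not known. Each mouse's value was therefore set against its own group mean, and genes were compared over the 8 mice by the correlation of these deviations. No p-value is given, because the genes were picked with results of these arrays known. The 45 pairs of genes had a median Pearson r of 0.48 and a median Spearman rho of 0.45. Of these pairs, 21 (46.7%) had a Pearson r above 0.5, beside 18.5% of all pairs of the 6196 genes above the median level, whose median r was 0.04. Without vehicle 15 and 16 the median over the pairs was 0.25 (6 mice), beside 0.06 for all such pairs. Without any single mouse the median was between 0.44 and 0.53. With both mice left out, the deviations of the remaining vehicle mice are equal and opposite by construction. That median is therefore not directly comparable with the median over 8 mice. The part of vehicle 15 and 16 in the shared variation was not tested.

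**Figure D3:**
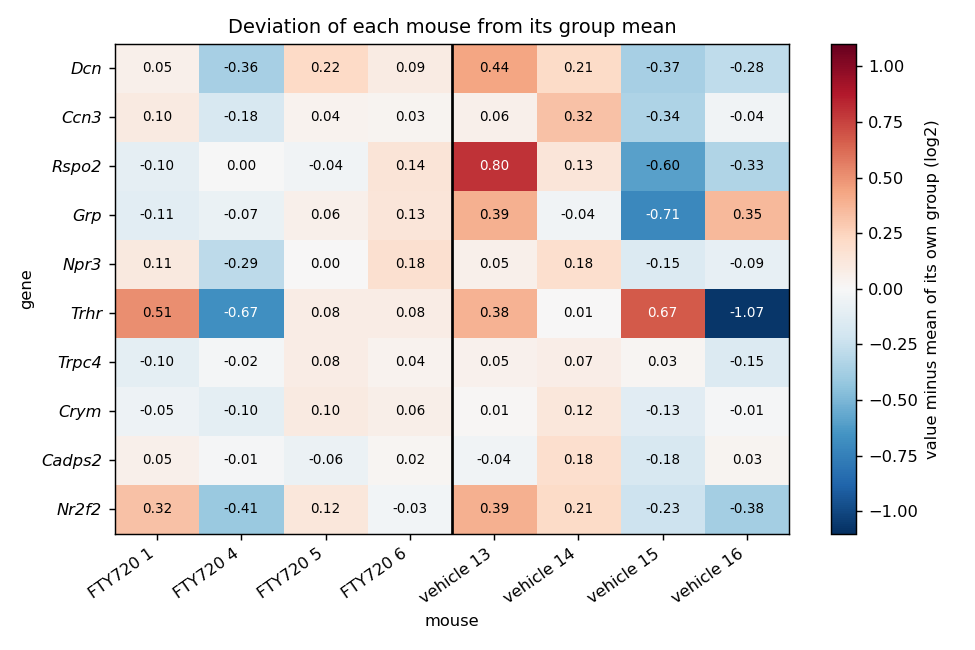
Value of each gene (rows) in each mouse (columns) minus the mean of that mouse's own group, on the log2 scale, with red above and blue below the group mean. FTY720 4 and vehicle 15 and 16 are below their group mean for most genes, while Trhr is above it in vehicle 15.

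Dcn and Nr2f2 followed each other most closely, with r = 0.90 (rho = 0.76) over the 8 group-centred values. Ccn3 ran with Cadps2 (r = 0.85, rho = 0.62), Crym (r = 0.82, rho = 0.69) and Npr3 (r = 0.81, rho = 0.83). Dcn had r = 0.97 with the mean of the other 9 genes and Nr2f2 had r = 0.91, so these 2 were the nearest to that mean. It was not scaled by gene, so genes that vary more between mice weigh more in it. Trhr (r = 0.18) and Grp (r = 0.26) were the farthest from it, and with each other they had r = -0.49 (rho = -0.40). Relative to the group mean, Grp stood at -0.71 in vehicle 15 but at 0.35 in vehicle 16, while Trhr stood at 0.67 and -1.07. The mean of all the genes was -0.20 in each of these mice, so the high values set Grp and Trhr apart. Only 5 of the 45 pairs were below 0, and 3 of them held Trhr.

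Probe sets of the same gene showed how far such correlations repeat with another measurement of the same RNA. The group-centred r between probe sets was 0.93 for Ccn3, 0.84 for Trpc4 and 0.68 for Trhr, and it lay between 0.76 and 0.91 for the 3 probe sets of Nr2f2. For Npr3 it was 0.73 between the brighter probe sets and, with the dimmest, -0.05 for the brightest and 0.61 for the second. Rspo2 and Trhr are near neighbours on their chromosome in the RefSeq annotation (GRCm38.p6), with 3 protein-coding genes between them, and their group-centred r was 0.13.

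Outside the 10, the genes most like their average in group-centred values were named from 6186 genes above the median level, whose median r was 0.06. Wnt7b, a WNT ligand, had r = 0.99 (rho = 0.90) and Nos1, the neuronal nitric oxide synthase, r = 0.94 (rho = 0.93). The other 6 were Agpat1, Tmem183a, Cadm3, Ift46, Aprt and Fkbp8, with r between 0.94 and 0.98. Between the groups, Wnt7b differed by 0.24 (SE 0.09, limma adjusted p = 0.699) and Nos1 by 0.30 (SE 0.12, limma adjusted p = 0.699), while Tmem183a differed by 0.01 (SE 0.05). Genes that were most alike within the groups thus differed little between the groups in some cases. The most opposed genes were Zfp868 (r = -0.97), Abhd4 (r = -0.96), Mpc1 (r = -0.94) and Gabrd (r = -0.92). Gabrd, the delta subunit of GABA receptors outside synapses, differed by -0.60 (SE 0.19, limma adjusted p = 0.685).

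Other genes known for ventral hippocampal signal were taken from a separate list, of which 9 of 10 had a probe set of their own. Of these, 6 were higher and 3 lower in FTY720 mice, with a median difference of 0.11, and 1 of the 9 had an unadjusted p under 0.05. Over all genes, 3.57% were higher at that threshold and 2.7% lower. That gene was Nnat, neuronatin, at 8.77, 8.32, 8.57 and 8.76 in FTY720 mice and 8.31, 8.14, 8.16 and 7.67 in vehicle mice. These groups touched without overlapping, and the difference was 0.53 (SE 0.14, limma adjusted p = 0.593). The 10 genes were chosen on their difference and are not in this list, so its smaller median follows in part from that choice.

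The rest of this ventral list was mixed. Plagl1, a zinc finger transcription factor, stood at 0.31 (SE 0.20), Gpc3, a glypican, at 0.28 (SE 0.15) and Lypd1 at 0.25 (SE 0.13). Col5a1, a collagen chain, differed by 0.11 (SE 0.15) and Dlk1 by 0.03 (SE 0.08). On the other side of 0 were Coch at -0.56 (SE 0.27), Calb2, calretinin, at -0.26 (SE 0.40) and the serotonin receptor gene Htr2c at -0.10 (SE 0.21). Calb2 stood at 0.13 and Htr2c at 0.15 without vehicle 15. Most of these values moved with single mice. Gpc3 stood at 0.11 without vehicle 16, Lypd1 at 0.13 without FTY720 1 and 0.16 without vehicle 15, Plagl1 at 0.19 without vehicle 14 and 0.49 without FTY720 4, and Coch at -0.84 without vehicle 13. The mean of the list by mouse lay between -0.15 and 0.16 in FTY720 and between -0.19 and 0.26 in vehicle mice, where vehicle 15 was the highest. In the group-centred values its r with the mean of the 10 genes was -0.02. The mean of this list thus did not follow the order of the mice seen in the 10. It was not scaled by gene, so genes that vary more between mice weigh more in it. Calb2 and Htr2c were highest in vehicle 15, at 9.73 and 5.38, and Calb2 is also in the thalamus and habenula list. Nothing is therefore read from this mean about the single genes.

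Genes known for dorsal hippocampal signal, of which 3 of 4 were measured, had a median difference of -0.03. Wfs1, wolframin, differed by -0.03 (SE 0.15), Lct by -0.27 (SE 0.25) and Iyd by 0.15 (SE 0.10), and none had an unadjusted p under 0.05. Lct was 7.88, 8.32, 7.80 and 7.26 in FTY720 mice and 8.58, 8.36, 7.68 and 7.73 in vehicle mice, which overlapped widely. Its difference was -0.65 without vehicle 15 and 16, and -0.44 to -0.09 without any 1 mouse. Wfs1 stood at 0.02 without vehicle 15, 0.08 without vehicle 13 and 0.07 without FTY720 5.

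Genes of other hippocampal cells and of neighbouring tissue were read in the same mice. Dentate granule cell genes had a median of -0.07 (5 of 7 measured), with the dim Prox1 at 0.18 (SE 0.08) and the calcium-binding protein gene Calb1 at -0.07 (SE 0.09). CA3 and mossy cell genes had a median of -0.13 (4 of 6). Bok stood at -0.19 (SE 0.11), Csf2rb2 at 0.15 (SE 0.13) and Prss35 at -0.08 (SE 0.13). Csf2rb2 ranged from 0.04 to 0.24 when any 1 mouse was left out. The dopamine receptor gene Drd2, which is also in the striatum list, stood at -0.38 (SE 0.24). Drd2 was -0.14 without vehicle 15 and 0.06 without vehicle 15 and 16. Amygdala genes had a median of -0.21 (4 of 6), which was 0.05 without vehicle 15 and 16. The transcription factor gene Foxp2 stood at -0.28 (SE 0.16), and at -0.10 without vehicle 15. Meis2 stood at -0.22 (SE 0.20), Tshz1 at -0.20 (SE 0.15) and Sim1 at 0.14 (SE 0.08). Without vehicle 15, Meis2 stood at 0.01 and Tshz1 at -0.07. Sim1 ranged from 0.05 to 0.17 when any 1 mouse was left out. Neocortex genes had a median of -0.11 (9 of 10). The deep-layer transcription factor gene Fezf2 stood at 0.65 with an SE of 0.26, while the keratin gene Krt12 and the upper-layer gene Lamp5 both stood at -0.49 (SE 0.20 and 0.23). Fezf2 was lowest in vehicle 15, at 7.31, and its difference was 0.33 without that mouse. Lamp5 was highest in vehicle 16, at 10.57, and its difference was -0.21 without that mouse.

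Thalamus and habenula genes (11 of 11) had a median of -0.81, striatum genes (7 of 10) -0.41 and choroid plexus genes (7 of 9) -0.61, with 6, 0 and 0 genes lower at an unadjusted p under 0.05. Over all genes, 2.7% were lower at that threshold. The transcription factor gene Tcf7l2 stood at -1.44 (SE 0.50) and Rora at -0.43 (SE 0.11) among thalamus genes, the enkephalin gene Penk at -1.14 (SE 0.52) among striatum genes, and Ttr, transthyretin, at -0.69 (SE 0.59) among choroid plexus genes. Without vehicle 15, Tcf7l2 stood at -0.87 and Penk at -0.61, and Penk stood at -0.10 without vehicle 15 and 16. Ttr ranged from -1.08 to -0.26 when any 1 mouse was left out. Vehicle 15, lowest for 7 of the 10 genes, had the highest list means, 1.41, 1.20 and 1.51 above the average of the mice. The range over FTY720 mice was -0.48 to -0.24 for thalamus and -0.32 to -0.20 for striatum, while for choroid plexus it was wide, -1.35 to 0.96, beside -1.03 to 1.51 in vehicle mice. Without vehicle 15 the medians were -0.32, -0.15 and -0.07. Vehicle 16 was high for the striatum list (0.34) and low for the thalamus list (-0.37). In group-centred values the mean of the 10 genes had r = -0.69 with the striatum list, r = -0.26 with the thalamus list and r = 0.16 with the choroid plexus list. Vehicle 13 and 14, at 0.07 and 0.21, also lay above every FTY720 mouse for the thalamus list, whose median was -0.43 without vehicle 15 and 16. The part of neighbouring tissue in the differences of the 10 genes was not tested.

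Decorin is also made by fibroblasts of the meninges and vessels, so their genes were read beside Dcn. Of 10 measured, 5 were higher and 5 lower, with a median of 0.01, and Mgp, matrix Gla protein, had the lowest unadjusted p at 0.33 (SE 0.14, limma adjusted p = 0.731), and 0.21 without vehicle 15. The collagen genes Col1a1 and Col3a1 stood at 0.09 (SE 0.07) and -0.16 (SE 0.15). The list mean by mouse ran from -0.10 to 0.13 in FTY720 and from -0.27 to 0.18 in vehicle mice, with vehicle 15 lowest. Dcn differed by 0.90 in the same mice. The part of fibroblasts in the difference of Dcn was not tested. All 9 other small leucine-rich proteoglycan genes were measured, with a median of 0.06, and Kera, keratocan, at 0.18 (SE 0.06) was the single one with an unadjusted p under 0.05, from a dim probe set at a mean level of 3.51.

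Oligodendrocyte and myelin genes were on the other side of 0 in 10 of 10 measured, with a median of -0.38. All had an unadjusted p under 0.05, beside 2.7% of all genes lower at that threshold, and a limma adjusted p between 0.592 and 0.699. Ugt8a stood at -0.52 (SE 0.10), Mog at -0.54 (SE 0.12) and Ppp1r14a at -0.45 (SE 0.11). Their list mean lay between -0.32 and -0.08 in FTY720 and between -0.05 and 0.38 in vehicle mice. In group-centred values the mean of the 10 genes had r = -0.45 with this list, -0.49 with the amygdala, -0.23 with the CA3 and mossy cell and -0.12 with the neocortex list, and 0.42 with the dentate, 0.38 with the fibroblast and 0.35 with the dorsal list. The part of these lower values in the differences of the 10 genes was not tested.

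**Figure D4:**
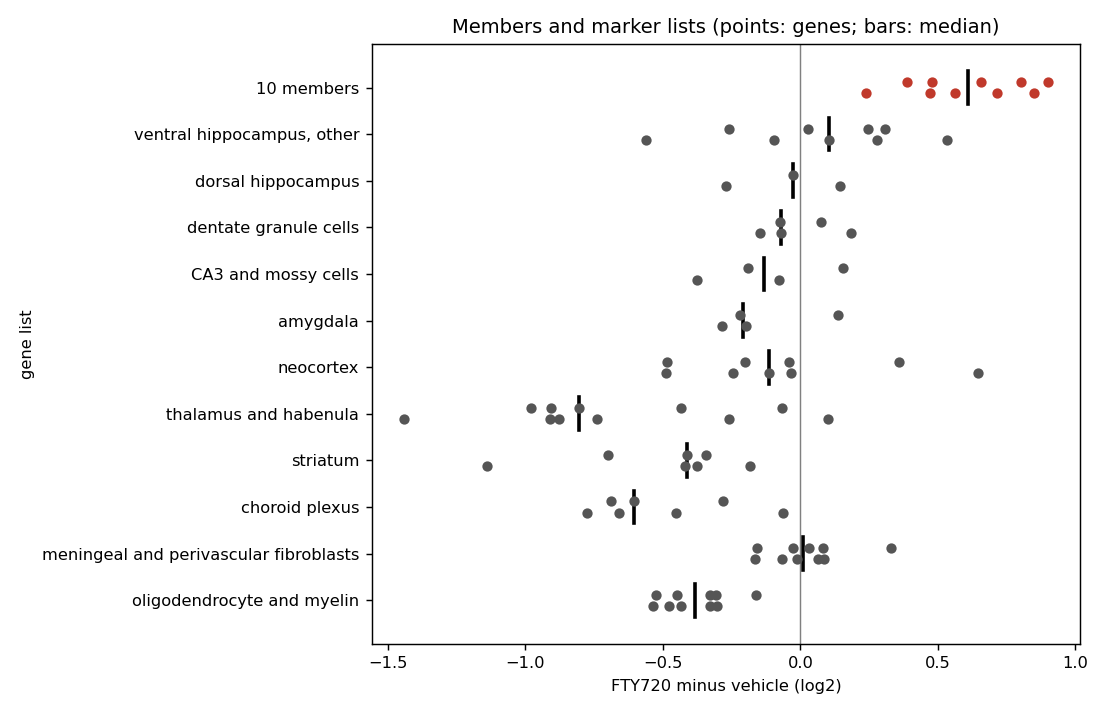
Difference FTY720 minus vehicle on the log2 scale (horizontal axis) of each measured gene, at its brightest probe set, in the 10 genes (red) and in 11 marker lists (grey), with a bar at each median. The 10 genes, chosen on this difference, lie between 0.24 and 0.90, the other ventral genes between -0.56 and 0.53, and the thalamus genes reach -1.44.

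Relatives and signalling partners of the 10 genes were read from lists of known family members and showed few differences. Of 10 genes for thyrotropin-releasing hormone, bombesin-like and natriuretic peptides and their receptors, 4 were higher and 6 lower with a median of -0.02, and none had an unadjusted p under 0.05. The receptor of gastrin-releasing peptide, Grpr, stood at 0.12 (SE 0.08) and Npr1, the signalling receptor for atrial peptide, at -0.17 (SE 0.08), while Nppc, the C-type peptide cleared by NPR3, stood at 0.10 (SE 0.07). All 3 probe sets lay below the median level of all genes.

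R-spondin relatives and receptors (6 of 10 measured) had a median of -0.04, led by Rspo1 at -0.60 (SE 0.30), which was -0.30 without vehicle 16 and -0.006 without vehicle 15 and 16, with Rnf43 at -0.15 (SE 0.10) and Lgr6 at 0.09 (SE 0.07). Among other TRPC channels (5 of 6) the median was 0.07. Trpc5, the nearest relative of Trpc4, had 5.90, 6.03, 5.89 and 6.08 in FTY720 mice and 5.84, 5.75, 5.54 and 4.90 in vehicle mice. Its groups did not overlap, and the difference of 0.47 (SE 0.17, limma adjusted p = 0.699) was 0.27 without vehicle 16. Trpc7 stood at 0.10, Trpc1 at 0.07, Trpc6 at -0.04 and Trpc2 at -0.07. Trpc5 was the only one of the 5 with an unadjusted p under 0.05.

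Other CCN genes (4 of 5) had a median of 0.11, with Ccn2 at 0.36 (SE 0.17; 0.20 without vehicle 15), Ccn1 at 0.21 (SE 0.18), Ccn4 at 0.01 and Ccn5 at -0.01. The COUP-TF relatives and orphan receptors (4 of 5) had a median of -0.008, with Nr2f1, which encodes COUP-TFI, at 0.07 (SE 0.10), Nr2f6 at -0.11, Nr2c1 at -0.08 and Nr2c2 at 0.11. Cadps, the close relative of Cadps2, differed by -0.02 (SE 0.05). Its list of vesicle priming genes (4 of 5) had a median of -0.01, with Unc13b at 0.15, Unc13a at -0.01 and Baiap3 at -0.36 (SE 0.37; 0.05 without vehicle 15). None of the genes in these 3 families had an unadjusted p under 0.05.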

How the data were processed

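Each mouse has 1 value per probe set in the table used, and by their range the deposited values are on a log2 scale. The submitters' processing notes name Affymetrix Expression Console, MAS5 and RMA but neither versions nor roles, and the build behind the submitters' processing is not stated there. RefSeq promoters and gene order are those of GRCm38.p6. Values were used as deposited. After removal of 64 control probe sets, 22626 were fitted with limma 3.58.1 (R 4.3.3, lmFit and eBayes, no covariate, two-sided) with Benjamini-Hochberg adjustment over all of them. The number of arrays limits the precision (median SE 0.07 on the log2 scale). The p-values set the group difference against the spread between these mice, moderated over all probe sets. In the platform annotation 20380 probe sets carry a single gene symbol, 691 carry several and 1555 none. A gene was read at its probe set of highest mean value, which gave 12393 genes.

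The genes and lists were chosen with earlier results of these data known. The genes named were the 10, and those of the other ventral and dorsal lists and of lists with at most 6 genes. From each longer list, some or all of the 3 genes of smallest unadjusted p were named. The 8 most alike and 4 most opposed genes were named too. Dsp and Tdo2 were added for the tissue check. The fit was tested on simulated data. Alternatives were quantile normalization, brighter probe sets only, a single probe set or the average of all probe sets for each gene, a trended and robust variance, leaving out each mouse, and leaving out vehicle 15 and 16. For the variation between mice, the last was added after the data were seen.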

Additional observations from a re-analysis of the deposited data

Results flagged for a closer look

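Within each group of 4 mice, the highest and the lowest mouse were compared with the nearest other mouse by Dixon's critical value. Of 230 groups of values checked, 15 had a mouse set apart from the rest, and chance alone flags about 1 in 20, or 11.5. For the mean deviation of the 10 genes, FTY720 4 was set apart at 0.09, with the next mouse at 0.36. The genes Ift46 and Fkbp8 were set apart in the same mouse, at 8.55 and 8.09. They were named because they follow that mean, so these flags follow largely from that choice and nothing is read from them.

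The others were single genes of the lists. In vehicle 15, Htr2c stood high at 5.38 and Epyc at 4.24. Coch was low at 5.96 and Sim1 at 4.74 in vehicle 13, Calb1 was high at 11.24 in vehicle 14, and Lamp5 was high at 10.57 in vehicle 16. Among FTY720 mice, Stxbp6 stood high at 6.84 and Ccn2 at 8.68 in mouse 4, Lamp5 was low at 9.05 and Trpc2 at 6.39 in mouse 6, Sim1 was high at 5.22 in mouse 1, and Nr2c1 was high at 5.66 in mouse 5.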

How the results depend on the processing

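The limma fits of all alternatives run called no probe set or gene at an adjusted p of 0.05. The count at an unadjusted p under 0.05 was 1529, and 1266 to 1838 when a mouse was left out. It was 823 with 1 probe set per gene, 835 with the probe sets of each gene averaged and 969 with brighter probe sets only, where fewer features were tested. All differences of the 10 genes, which were chosen on them, stayed above 0 in every alternative run. Their median was 0.48 to 0.71 without any 1 mouse and 0.36 without vehicle 15 and 16, where Rspo2 stood at 0.25. Npr3 stood at 0.47 with its probe sets averaged, a mean that includes the dimmest. The median correlation between the 10 genes was 0.44 to 0.53 without any 1 mouse. No paired analysis was possible because the replicate numbers differ between the groups.

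Other list medians and single genes, none of them called, changed sign in places, and the cause was not tested. With vehicle 15 and 16 left out, the medians were -0.10 for fibroblast, 0.031 for striatum, 0.053 for amygdala and -0.011 for proteoglycan genes, and Htr2c was 0.18, Drd2 0.062, Meis2 0.12, Trpc2 0.016 and Ccn4 -0.12. Quantile normalization gave a fibroblast median of -0.0011 and -0.0091 for Ccn4. Averaged probe sets gave -0.013 for Ccn4 and 0.028 for the COUP-TF list, which was 0.066 with brighter probe sets only. When a mouse was left out, medians ranged from 0.0098 to 0.18 for other ventral genes, from -0.14 to 0.082 for dorsal, from -0.14 to 0.082 for dentate, from -0.065 to 0.069 for fibroblast, from -0.21 to 0.0011 for neocortex, from -0.049 to 0.011 for peptide signalling, from -0.048 to 0.030 for COUP-TF and from -0.024 to 0.0088 for vesicle priming genes. Single genes that crossed 0 ranged from -0.20 to 0.15 (Htr2c), -0.023 to 0.074 (Dlk1), -0.66 to 0.13 (Calb2), -0.14 to 0.082 (Wfs1), -0.15 to 0.0053 (Calb1), -0.17 to 0.045 (Prss35), -0.38 to 0.014 (Meis2), -0.15 to 0.015 (Trpc2), -0.27 to 0.12 (Trpc6), -0.044 to 0.089 (Ccn4), -0.13 to 0.083 (Ccn5), -0.0099 to 0.15 (Nr2f1), -0.023 to 0.22 (Nr2c2), -0.089 to 0.033 (Unc13a), -0.017 to 0.23 (Unc13b) and -0.59 to 0.051 (Baiap3).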
